A study of Rattus norvegicus with 10 samples.

Results

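The chemokine Cxcl12, its signalling receptor Cxcr4 and its atypical receptor Ackr3 were followed in rat mammary tumours before and after oral hydroxytyrosol. They were taken as every probe set on the array whose annotation gives exactly 1 gene symbol, that symbol being Ackr3, Cxcr4 or Cxcl12. This gave 7 probe sets for 3 genes (1 for Ackr3, 3 for Cxcr4 and 3 for Cxcl12) out of 31042 probe sets that were not controls, and all 7 passed the filter on dim signal. The genes were chosen by their final minus basal differences on these same arrays, so those differences are given here as a description, without a test.

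In the RefSeq annotation of GRCr8, Ackr3 spans chr9:98247300-98258877, Cxcr4 chr13:42630383-42634288 and Cxcl12 chr4:152060781-152073628.

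Both groups of arrays came from female Sprague-Dawley rats whose mammary tumours had been induced with 100 mg/kg of oral 7,12-dimethylbenz(a)anthracene (DMBA), a carcinogen. Final samples were taken at 19 weeks of age, after hydroxytyrosol, a phenol of olive oil, at 0.5 mg/kg by gavage on 5 days a week for 6 weeks. Basal samples were Trucut needle biopsies of the same tumours at 12 weeks of age, at a volume of 2 cm3 and with no treatment. The 10 arrays formed 5 pairs, the tumours 66D2, 67D3, 45D3, 49I1 and 51I1, all of Bloom-Richardson grade II. The sample labels call the final piece total tumour and the design text calls it a Trucut sample. No later tumour without hydroxytyrosol was analysed here, so treatment, age, tumour growth and way of sampling cannot be told apart, and what the separate runs of codes in the titles of final and basal arrays stand for is not given.

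CXCL12 is secreted by stromal cells such as fibroblasts, and it draws and holds cells that carry CXCR4, among them leukocytes, haematopoietic stem cells and many carcinoma cells. CXCR4 couples to inhibitory G proteins and drives migration. ACKR3 binds the same ligand with high affinity, does not signal through G proteins in the usual way, recruits arrestins and carries CXCL12 into the cell for degradation. In breast cancer the axis is known for its part in the spread of tumour cells to organs rich in CXCL12, and ACKR3 is known from endothelium and tumour cells.

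Signals are Robust Multichip Average (RMA) values on the log2 scale, on which a difference of 1 is a doubling of signal. The BioB spike-in, which the study used to estimate sensitivity, averaged 8.04, and probe sets with a mean below 5.14 were left out as dim. Among 13 luminal epithelial markers, Epcam, an epithelial adhesion molecule, had 12.86 ± 0.20 in final and 12.85 ± 0.13 in basal samples, and the keratin Krt19 had 13.01 ± 0.45 in final and 13.14 ± 0.67 in basal samples (SD, n = 5 each). The luminal transcription factors Elf3 and Elf5 averaged 8.76 and 8.23 over the 10 arrays, near BioB, and Esr1, the oestrogen receptor, was below the dim cutoff with a mean of 4.60. The hexokinase control's 3′ minus 5′ difference, a sign of RNA quality, was 1.02 ± 0.08 in final and 1.57 ± 0.595 in basal arrays (SD, n = 5 each), highest in the biopsies of 45D3 (2.36) and 67D3 (2.03). The final array of 45D3 did not resemble its own biopsy: the deviations of the 2 arrays from their group means correlated at -0.16 across probe sets, against 0.17 to 0.72 in the other 4 tumours. The differences of Ackr3, Cxcr4 and Cxcl12 are therefore also given without 45D3, and other values where that moved them by over 1.5 times.

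The RefSeq sequences (GRCr8) around the starts of the 3 genes are shown because transcription of the described genes starts there and because the 3 windows hold different core elements. Each window runs 5′ to 3′ from 250 bases before to 50 bases after the start used by the table, which for Ackr3 lies inside the annotated gene. Capitals mark matches on either strand to TATAAA (the TATA box core), GGGCGG (the GC box), GCATGC (the core of the palindrome bound by NRF1), ACGTG or GCGTG (cores of hypoxia response elements) and TGANTCA (the AP-1 site), and neighbouring matches can overlap.
Ackr3 (chr9:98247104-98247403, plus strand): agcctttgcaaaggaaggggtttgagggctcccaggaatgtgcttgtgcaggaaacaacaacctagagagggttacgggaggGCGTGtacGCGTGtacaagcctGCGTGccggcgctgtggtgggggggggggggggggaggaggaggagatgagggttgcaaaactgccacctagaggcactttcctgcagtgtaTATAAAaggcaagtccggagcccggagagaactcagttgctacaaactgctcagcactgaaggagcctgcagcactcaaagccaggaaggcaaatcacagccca
Cxcr4 (chr13:42634239-42634538, minus strand): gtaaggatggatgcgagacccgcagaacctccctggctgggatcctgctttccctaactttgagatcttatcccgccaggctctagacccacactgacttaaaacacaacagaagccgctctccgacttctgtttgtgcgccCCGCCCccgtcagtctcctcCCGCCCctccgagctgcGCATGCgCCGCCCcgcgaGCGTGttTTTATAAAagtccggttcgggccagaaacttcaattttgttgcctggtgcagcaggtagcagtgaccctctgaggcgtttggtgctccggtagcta
Cxcl12 (chr4:152060531-152060830, plus strand): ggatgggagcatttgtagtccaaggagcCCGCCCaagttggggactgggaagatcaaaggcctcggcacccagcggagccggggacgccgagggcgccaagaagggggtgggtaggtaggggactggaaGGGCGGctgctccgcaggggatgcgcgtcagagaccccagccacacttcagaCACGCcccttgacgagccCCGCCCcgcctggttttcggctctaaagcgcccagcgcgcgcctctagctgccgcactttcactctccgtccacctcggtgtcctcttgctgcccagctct

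The Ackr3 window held 1 TATAAA, 3 GCGTG and 0 GGGCGG, with 9 CpG and 57.7% G and C. Its TATAAA began at position -54 from the start used, which is where the annotated gene itself begins. Whether any match acts as a promoter element was not tested. The Cxcr4 window held 2 overlapping TATAAA matches, 3 GGGCGG, 1 GCATGC and 1 GCGTG, with 20 CpG and 58.0% G and C. The Cxcl12 window held 3 GGGCGG, 1 GCGTG and 0 TATAAA, with 23 CpG and 66.7% G and C. Neither ACGTG nor TGANTCA occurred in any of the 3 windows. Of 33469 rat promoter windows of the same length, 14.2% held TATAAA, 33.1% GGGCGG, 7.16% GCATGC, 19.3% ACGTG, 29.7% GCGTG and 7.33% TGANTCA.

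Ackr3, measured by probe set 1367940_at, was higher in final samples in 4 of 5 tumours. In final samples the signal of 66D2 was 8.23, that of 67D3 9.32, that of 45D3 7.74, that of 49I1 7.61 and that of 51I1 8.92. In basal samples the same tumours had 6.29, 7.34, 8.31, 6.61 and 6.64, listed in that order. The final signals of 67D3 and 51I1 lay above every basal signal and the other 3 lay inside the basal range, whose top was the biopsy of 45D3. The within-tumour difference was 1.94 in 66D2, 1.98 in 67D3, 0.99 in 49I1 and 2.28 in 51I1, and -0.57 in 45D3. The mean difference was 1.32 ± 1.17 (SD, n = 5; SE 0.52), from 8.36 ± 0.74 in final and 7.04 ± 0.81 in basal samples (SD, n = 5 each). Without 45D3 it was 1.80. Only 3 final and 1 basal signals lay above the BioB level of their own array, so most biopsy values are dim and no fold is given.

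Of the 18625 tested probe sets, 21.3% were higher in final samples in at least 4 of 5 tumours, and 0.634% had a mean difference of at least 1 log2 unit upward. In 0.172% all final signals lay above all basal signals and in 1.07% all lay below, which held for no Ackr3, Cxcr4 or Cxcl12 probe set. Since Ackr3 was chosen with this contrast known, nothing is read from its place among them. Tumours differed widely in Ackr3 at both moments: its SD between tumours exceeded that of 92.4% of tested probe sets in final and 94.3% in basal samples. The median SD of all tested probe sets was 0.25 in final and 0.26 in basal samples.

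**Figure D1:**
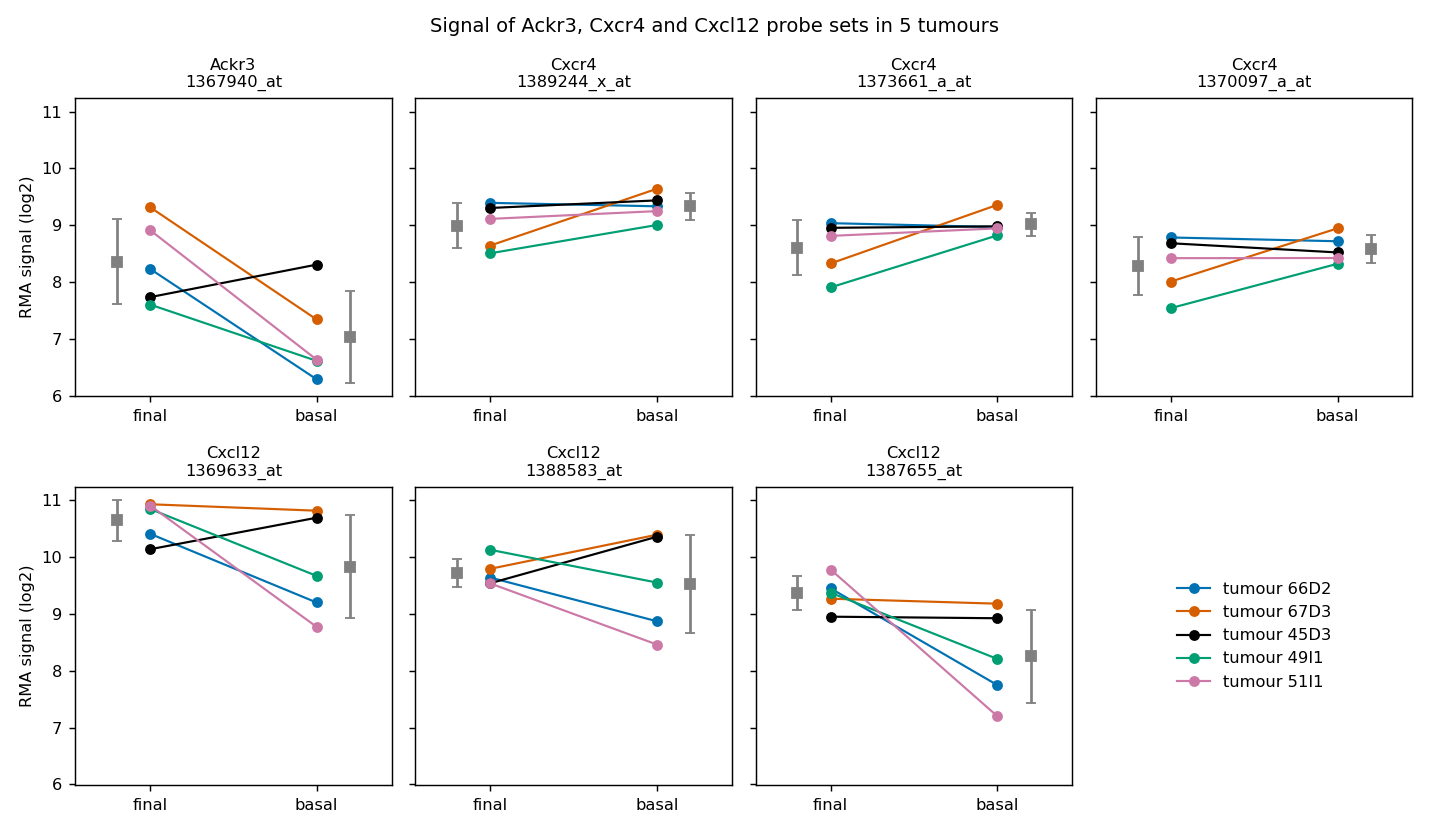
RMA signal (log2, vertical axis) of each Ackr3, Cxcr4 and Cxcl12 probe set in final and basal samples; coloured points joined by a line are the samples of 1 tumour, and grey squares with bars are the group mean and SD (n = 5). The Ackr3 lines lie higher on the final side in 4 tumours and lower in 45D3, the Cxcr4 lines are flat except in 67D3 and 49I1, and the Cxcl12 points are closer together in final than in basal samples.

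Cxcr4 was measured by 3 probe sets, 2 of which (1389244_x_at and 1373661_a_at) were designed from the same source sequence, so they are not independent readings. An x in a probe set name marks probes that may also bind other transcripts. By 1373661_a_at, the final sample of 66D2 had 9.04, that of 67D3 8.33, that of 45D3 8.96, that of 49I1 7.91 and that of 51I1 8.81. The biopsies of these tumours, in the same order, had 8.97, 9.36, 8.98, 8.82 and 8.95. The final signals of 67D3, 49I1 and 51I1 lay below every basal signal, by little in 51I1, and the other 2 lay inside the basal range.

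The mean Cxcr4 difference was -0.41 ± 0.52 by 1373661_a_at, -0.34 ± 0.42 by 1389244_x_at and -0.30 ± 0.52 by 1370097_a_at (SD, n = 5 each), with SEs of 0.23, 0.19 and 0.23. Each value lay within 1 SD of 0. The size came from 2 tumours: in 67D3 the differences ran from -1.03 to -0.94 and in 49I1 from -0.91 to -0.50. In 66D2 all 3 probe sets gave 0.06 to 0.07, in 45D3 they ran from -0.13 to 0.16 and in 51I1 from -0.14 to -0.0026. Cxcr4 was thus lower in 4 of 5 tumours by 2 probe sets and in 3 of 5 by 1370097_a_at. Of all tested probe sets 25.2% were lower in at least 4 of 5 tumours and 52.0% in at least 3 of 5.

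Leaving out 67D3 brought the mean Cxcr4 differences to -0.25 by 1373661_a_at, -0.18 by 1389244_x_at and -0.14 by 1370097_a_at, and without 49I1 the value by 1370097_a_at was -0.18. Without 45D3 they were -0.50, -0.39 and -0.41 in the same order of probe sets. With the median of the skeletal muscle markers as covariate they were -0.078, -0.025 and, with the sign turned, 0.070. The median of the 5 within-tumour differences was -0.13, -0.14 and -0.0026. The SD of Cxcr4 between tumours was 0.40 to 0.51 in final samples, larger than that of 74.8% to 83.6% of tested probe sets, and 0.20 to 0.25 in basal samples, larger than that of 35.1% to 47.8%, a final over basal ratio of 1.69 to 2.37, where the median over all tested probe sets was 0.98. All Cxcr4 signals lay above BioB on their own array except 1 final and 1 basal signal of 1370097_a_at that did not reach it.

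Cxcl12, the ligand of both receptors, gave different mean differences by its 3 probe sets. By 1369633_at, the brightest, the final signal of 66D2 was 10.41, of 67D3 10.93, of 45D3 10.14, of 49I1 10.85 and of 51I1 10.91. The basal signals were 9.20, 10.82, 10.69, 9.67 and 8.77 in this order of tumours. Final signals of 67D3, 49I1 and 51I1 were above every basal signal, while the biopsies of 67D3 and 45D3 lay inside the range of the final samples. The mean difference was 0.82 ± 1.05 (SD, n = 5; SE 0.47), a mean fold of 1.76 in signal, with 4 tumours higher and 45D3 lower by 0.55 on the log2 scale.

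By 1387655_at the mean Cxcl12 difference was 1.11 ± 1.09 (SD, n = 5; SE 0.49), and the final sample was higher in 5 of 5 tumours, though by only 0.09 in 67D3 and 0.03 in 45D3. The largest differences by this probe set, 1.70 in 66D2 and 2.58 in 51I1, rest on dim biopsies. Their signals of 7.75 and 7.20 lay below BioB on their own arrays (8.18 and 8.54). Of the 5 basal signals 3 lay above BioB by 1387655_at, 4 by 1388583_at and 5 by 1369633_at, and all final signals did. Among all tested probe sets 3.96% were higher in 5 of 5 tumours. By 1388583_at the mean was 0.20 ± 0.85 (SD, n = 5; SE 0.38), with 3 tumours higher and 2 lower, 67D3 at -0.60 and 45D3 at -0.82, where 48.0% of all tested probe sets were higher in at least 3 of 5. The 3 probe sets kept the same order in the size of the difference in 66D2, 45D3 and 51I1, with 1387655_at highest and 1388583_at lowest. The gap between those 2 was at least 0.59 in every tumour and reached 1.5 in 51I1, and 51I1 gave the largest Cxcl12 difference by every probe set (2.58, 2.14 and 1.07). Which part of the Cxcl12 transcripts each probe set reads was not analysed here.

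Without 51I1 the mean Cxcl12 difference was 0.49 by 1369633_at, 0.74 by 1387655_at and -0.018 by 1388583_at, so by the last the sign rests on that tumour. By 1388583_at the mean was also 0.059 without 66D2, 0.40 without 67D3 and 0.11 without 49I1, the median of the 5 differences was 0.58, and with the skeletal muscle covariate the value was 0.47. Without 45D3 the values were 1.16, 1.38 and 0.46 in the same order. With the hexokinase difference as a covariate they were 1.55, 1.82 and 0.85. The biopsies with the highest Cxcl12 by all 3 probe sets were those of 67D3 and 45D3, the same 2 arrays that had the highest hexokinase 3′ minus 5′ differences, and the part of RNA quality in the Cxcl12 values was not tested.

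The final samples lay close together in Cxcl12. The SD between tumours by 1369633_at, 1388583_at and 1387655_at was 0.35, 0.25 and 0.30 in final samples, against 0.90, 0.87 and 0.82 in basal samples. The range by 1369633_at was 0.79 in final and 2.04 in basal samples. A final over basal SD ratio as low as those 3 (0.39, 0.28 and 0.37) was found in 4.41%, 1.41% and 3.43% of all tested probe sets. The 3 probe sets read the same RNA of the same samples, so they do not count as 3 observations of this narrowing. The SD of the hexokinase 3′ minus 5′ difference was also smaller in final (0.08) than in basal arrays (0.595), and its part in the narrowing was not tested. Cxcl12 was chosen with earlier results of these data known, so nothing is read from its place among the tested probe sets.

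**Figure D2:**
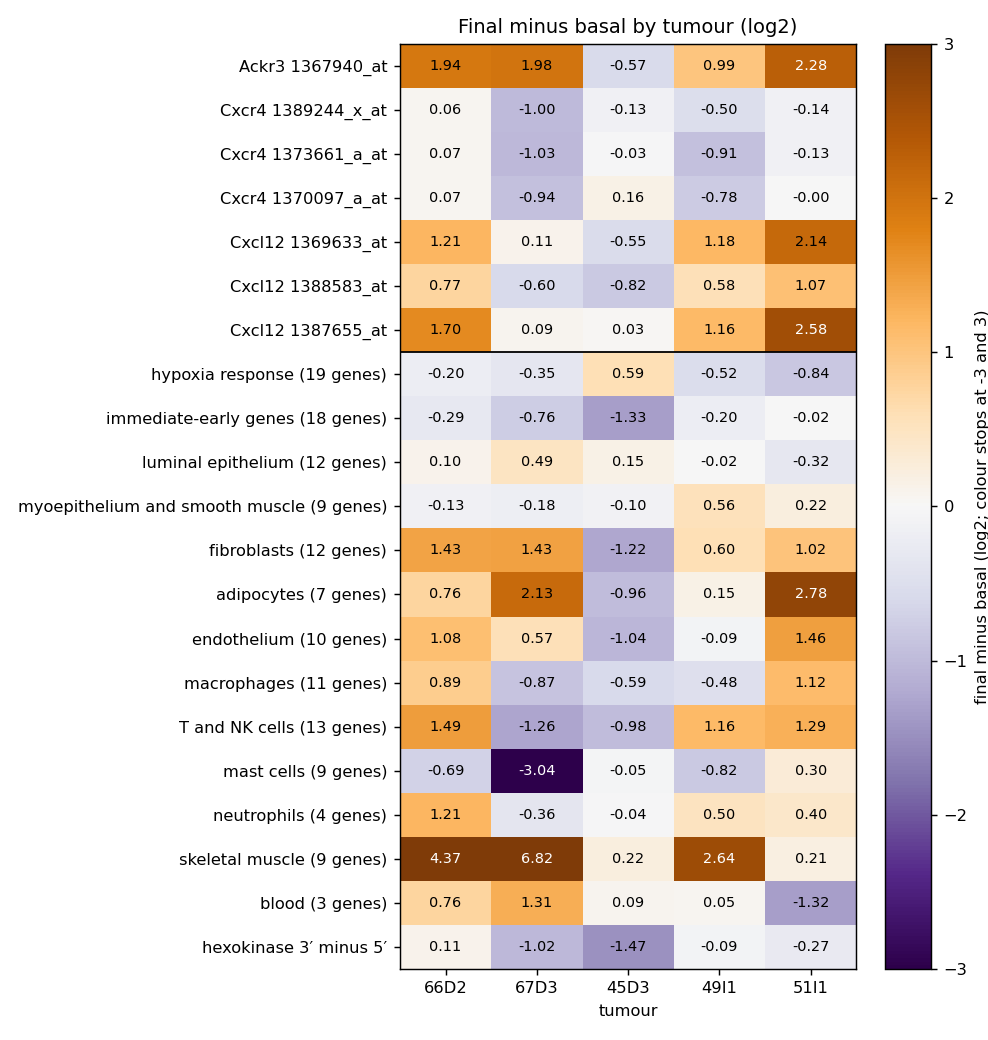
Final minus basal difference (log2) in each tumour (columns) for the 7 probe sets (above the line) and, below it, the median difference of hypoxia, immediate-early and marker lists with at least 3 tested genes and the change of the hexokinase 3′ minus 5′ difference. Ackr3 and the fibroblast and adipocyte lists are positive in 4 tumours and negative in 45D3, while Cxcr4 is most negative in 67D3 and 49I1.

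Side by side, the 2 receptors and the ligand did not follow 1 pattern across tumours. In 67D3 Ackr3 was higher by 1.98 and Cxcr4 lower by about 1 log2 unit (-1.03 to -0.94), with Cxcl12 between -0.60 and 0.11. In 51I1 and 66D2 Ackr3 and Cxcl12 were both higher, Ackr3 by 2.28 and 1.94, with Cxcr4 between -0.14 and 0.07. In 49I1 Ackr3 was higher by 0.99, Cxcl12 by 0.58 to 1.18, and Cxcr4 lower (-0.91 to -0.50). In 45D3 Ackr3 was lower by 0.57 on the log2 scale and Cxcl12 was between -0.82 and 0.03.

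Markers of other cell types moved as well, and in bulk tumour RNA fewer cells of a type and less RNA per cell cannot be told apart. Over all tested probe sets about as many were higher in the mean as lower, which is the background for the gene counts here and below. Genes of a list can move together within a sample, so the genes in such a count are not independent observations. Fibroblast markers had a higher mean in 12 of 12 genes, with a summed linear signal of 11441 to 60197 in final and 12701 to 32899 in basal arrays. Tumour by tumour the fibroblast median was 1.43 for 66D2, 1.43 for 67D3, -1.22 for 45D3, 0.60 for 49I1 and 1.02 for 51I1, the same signs as Ackr3. The match rests on 45D3 being the lower tumour, and its final array did not resemble its own biopsy. Of all tested probe sets 21.3% were higher in at least 4 of 5 tumours, and how many share these exact signs was not counted. The median over the 12 genes was 0.66, and without 45D3 it was 1.19. Without 66D2 it was 0.44. Adipocyte markers had 7 of 7 tested genes higher in the mean, a summed signal of 1089 to 12502 in final and 1257 to 2635 in basal arrays, and per-tumour medians of 0.76, 2.13, -0.96, 0.15 and 2.78 in the same order. Lep, Plin1 and Cidec, which mark adipocytes, were below the dim cutoff. Endothelial markers had 9 of 10 genes higher in the mean (summed signal 1568 to 4169 in final and 1350 to 2860 in basal arrays), with 45D3 at -1.04 and 49I1 at -0.09. Their median of 0.41 was 0.68 without 45D3, 0.24 without 66D2 and 0.20 without 51I1, and the adipocyte median of 0.97 was 0.33 without 51I1. The part of these cell types in the Ackr3 and Cxcl12 values was not tested.

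Leukocytes carry Cxcr4, so their markers were read beside it. T and NK cell markers had 12 of 13 tested genes higher in the mean (summed signal 932 to 5373 in final and 706 to 3041 in basal arrays, with Cd8b, Klrb1a and Klrd1 below the dim cutoff). Their median was positive in 66D2 (1.49), 49I1 (1.16) and 51I1 (1.29) and negative in 67D3 (-1.26) and 45D3 (-0.98). The median of their mean differences was 0.43, against 0.77 without 45D3, 0.81 without 67D3, 0.24 without 51I1, 0.22 without 49I1 and -0.025 without 66D2. Mast cell markers were lower in the mean in 7 of 9 genes (summed signal 485 to 10179 in final and 623 to 10270 in basal arrays), with medians of -0.69 for 66D2, -3.04 for 67D3, -0.05 for 45D3, -0.82 for 49I1 and 0.30 for 51I1. Macrophage markers had 6 of 11 genes higher in the mean, summed signals of 7515 to 26609 in final and 6839 to 14998 in basal arrays, and medians of 0.89, -0.87, -0.59, -0.48 and 1.12 in the same order of tumours. In 67D3 and 49I1, where Cxcr4 was lowest relative to the biopsy, mast cell and macrophage medians were both negative. They were also both negative in 45D3 (-0.05 and -0.59), where the Cxcr4 differences ran from -0.13 to 0.16. The T and NK cell median was negative in 67D3 and 45D3 and positive in 49I1. The neutrophil median, over 4 tested genes, had the same signs there, at -0.36, -0.04 and 0.50. Csf3r, Cxcr2 and Camp of the neutrophil list were below the dim cutoff. Skeletal muscle markers had 9 of 9 tested genes higher in the mean (summed signal 1834 to 43582 in final and 1509 to 2833 in basal arrays, with Myh2 and Myh4 below the dim cutoff), with medians of 4.37 in 66D2, 6.82 in 67D3 and 2.64 in 49I1 and about 0.2 in 45D3 (0.22) and 51I1 (0.21). With their median as a covariate Ackr3 differed by 0.77, and the part of leukocytes and muscle in the Cxcr4 values was not tested beyond the muscle covariate given above.

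Hypoxia induces Cxcr4 and Cxcl12 in many cells, and 19 hypoxia response genes were read beside them. In the mean 18 of 19 were lower in final samples, with a median difference of -0.23 against -0.0003 over all tested probe sets (-0.50 without 45D3 and -0.12 without 51I1), and 0 passed the adjusted p threshold of 0.05 (limma). The list median was positive in 45D3 (0.59) and negative elsewhere, at -0.20 for 66D2, -0.35 for 67D3, -0.52 for 49I1 and -0.84 for 51I1. The part of hypoxia in the Cxcr4 and Cxcl12 values was not tested.

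The other genes of the axis and of the chemokine family were tested in a fit across all 18625 probe sets (limma with the tumour as a block, Benjamini-Hochberg adjustment). Of 125 such genes listed, 106 were on the array and 89 were tested, 52 of them higher and 37 lower in the mean, with a median difference of 0.06. Among all tested probe sets 0 passed in either direction (0.0% called, smallest adjusted p = 0.413), and therefore 0 of the 89. At an unadjusted p under 0.05 limma gave 1494 probe sets, 3.43% of those tested being higher and 4.59% lower. Of the 89 genes, 5 were higher and 1 lower at that unadjusted level, 6.74% in all. Named below are the up to 4 genes of each list with the smallest p. Their SEs are limma's moderated SEs, which draw the variance of each probe set toward a value shared by all tested ones. They differ in kind from the SEs of the Ackr3, Cxcr4 and Cxcl12 probe sets, which come from the 5 within-tumour differences alone.

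Among 10 other ligands and ligand-processing genes, 5 were higher and 5 lower in the mean. Dpp4, the peptidase that trims and inactivates CXCL12, differed by 0.98 (SE 0.28, limma adjusted p = 0.556) and was higher in 4 of 5 tumours, not in 45D3 (-0.12). Its signals, 5.13 to 6.87 in final and 4.90 to 5.44 in basal samples, all lay below BioB. Penk, which encodes the enkephalin precursor whose opioid peptides ACKR3 also binds, differed by 0.88 (SE 0.28, adjusted p = 0.579, limma) and was higher in 4 of 5. Cxcl11, the other chemokine bound by ACKR3, differed by 0.97 (SE 0.51) with 4 of 5 higher, 66D2 giving 3.22, and without that tumour 0.41. Only 2 of its final and 0 of its basal signals lay above BioB on their own array. Sdc4, a heparan sulphate proteoglycan of the cell surface, differed by -0.15 (SE 0.10).

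Among partner receptors 8 of 9 tested genes were higher in the mean, with a list median of 0.17, and of 0.32 without 45D3. Egfr, the epidermal growth factor receptor, differed by 0.41 (SE 0.16, limma adjusted p = 0.601) and was higher in 5 of 5 tumours. Calcrl and Ramp2, which together form a receptor for adrenomedullin, a peptide that ACKR3 also takes up, differed by 0.61 (SE 0.25) and 0.62 (SE 0.32), each higher in 4 of 5. No Calcrl signal lay above BioB on its own array. Without 67D3 Egfr was 0.25, without 51I1 Calcrl was 0.37 and without 45D3 Ramp2 was 0.95. Itgb1, the beta 1 integrin chain, was higher in 5 of 5 by a mean of 0.17 (SE 0.10).

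The 11 tested arrestins, receptor kinases and RGS proteins, which end or redirect receptor signals, had 7 higher and 4 lower in the mean. Rgs2 and Rgs1, which speed the switching off of G proteins, differed by -0.46 (SE 0.21) and -0.92 (SE 0.55), and Rgs1 by -3.24 in 67D3 and -1.84 in 45D3 while 2 tumours were higher. Without 67D3 they were -0.27 and -0.35. Grk2, the kinase that marks active receptors for arrestin, differed by 0.15 (SE 0.10) and Rgs5 by 0.16 (SE 0.16), and without 66D2 Grk2 was 0.090. Of 17 tested transducers of CXCR4 signals 8 were higher and 9 lower, all between -0.32 and 0.19. Stat3, a transcription factor activated downstream, had the lowest of these (SE 0.18), which was -0.14 without 51I1, and the small GTPases Cdc42 and Rac1 differed by 0.15 (SE 0.09) and 0.12 (SE 0.09), each higher in 5 of 5 (Rac1 by 0.076 without 51I1), with the phospholipase Plcb3 at -0.17 (SE 0.10).

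Of 13 tested transcription factors and upstream signals linked to Cxcr4 or Cxcl12, 7 were higher and 6 lower in the mean. Ebf1, a factor of stromal and adipocyte precursors and of B cells, differed by 0.89 (SE 0.41, limma adjusted p = 0.642) with 4 of 5 tumours higher and 45D3 at -0.98. Only 1 of its final and 0 of its basal signals lay above BioB on their own array. The growth factor Tgfb1 differed by 0.27 (SE 0.15), the glucocorticoid receptor Nr3c1 by 0.22 (SE 0.15) and Nrf1, the factor of the GCATGC core, by -0.14 (SE 0.11). No Nrf1 signal lay above BioB on its own array. Without 45D3 Ebf1 was 1.36, Nr3c1 0.33 and Nrf1 -0.068, and without 51I1 Nr3c1 was 0.10. Foxc1, which maintains CXCL12-rich stromal cells of mouse marrow, was below the dim cutoff.

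**Figure D3:**
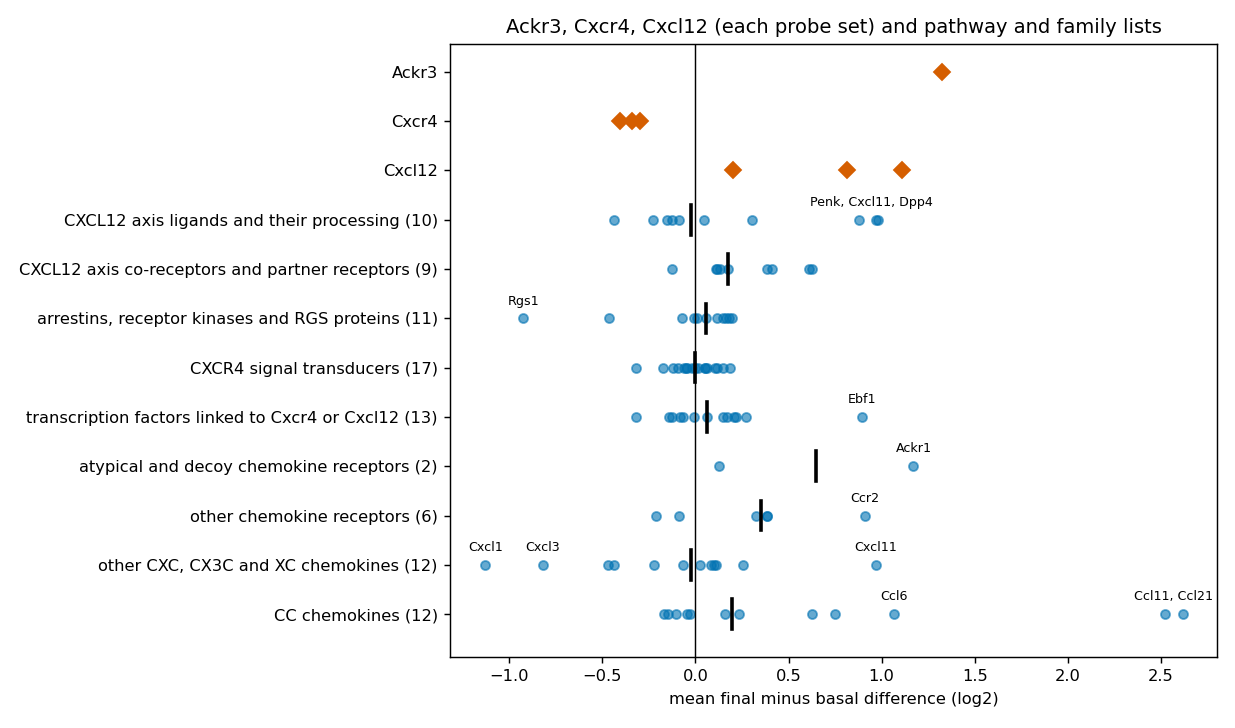
Mean final minus basal difference (log2, horizontal axis) of each Ackr3, Cxcr4 and Cxcl12 probe set (orange diamonds) and of each tested gene of the axis and family lists (blue points, 1 probe set a gene, the number tested in brackets); black bars are list medians and genes beyond 0.8 among the named ones are labelled. None of the blue genes passed the adjusted threshold, and list medians other than that of the 2 atypical receptors lie between -0.02 and 0.35.

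Within the receptor family, Ackr1, the atypical receptor of venules and red cells, differed by 1.17 (SE 0.53, limma adjusted p = 0.639). It was higher in 4 of 5 tumours and lower in 45D3 (-0.49), with 3.47 in 51I1, and 9 of its 10 signals lay below BioB. Ackr2, Ackr4 and Ccrl2 were below the dim cutoff, and Pitpnm3 differed by 0.13 (SE 0.22), by 0.34 without 45D3 and by -0.058 without 49I1. Of the other chemokine receptors 6 of 11 on the array were tested, 4 higher and 2 lower in the mean. The fractalkine receptor Cx3cr1 differed by -0.21 (SE 0.10), Ccr1 by 0.39 (SE 0.25), the monocyte receptor Ccr2 by 0.91 (SE 0.68) and Ccr6 by 0.32 (SE 0.26). Ccr2 was 0.28 without 51I1 and 1.55 without 67D3, Ccr6 was 0.10 without 66D2 and 0.56 without 45D3, and Ccr1 was 0.21 without 66D2. Ackr1 was 0.60 without 51I1.

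Among 12 other tested CXC, CX3C and XC chemokines 6 were higher and 6 lower in the mean. Cxcl1, a neutrophil attractant, had the smallest p of all axis and family genes. The final signal of 66D2 was 8.21, of 67D3 9.48, of 45D3 7.16, of 49I1 6.48 and of 51I1 6.09, against 9.26, 9.71, 8.94, 7.75 and 7.38 in their biopsies. It was lower in 5 of 5 tumours, as were 4.75% of all tested probe sets (mean difference -1.13, SE 0.21, limma adjusted p = 0.413), though the ranges of final and basal signals overlap. The related attractants Cxcl3 and Cxcl2 differed by -0.82 (SE 0.40) and -0.47 (SE 0.38). No Cxcl2 signal and only 1 Cxcl3 signal, a basal one, lay above BioB on its own array. Cxcl3 was -0.52 without 49I1, and Cxcl2 was -0.022 without 45D3, the tumour with -2.25. Of 12 tested CC chemokines 7 were higher and 5 lower. Ccl11, the eosinophil attractant eotaxin, differed by 2.52 (SE 1.04, limma adjusted p = 0.62), with a biopsy signal in 66D2 of 4.04, below the dim cutoff, and a difference of 7.06 in that tumour. Ccl21, the lymphoid homing chemokine, differed by 2.62 (SE 1.38), Ccl6 by 1.07 (SE 0.69) and Ccl5 by 0.75 (SE 0.58). Leaving out 1 tumour moved these means: Ccl11 was 1.39 without 66D2, Ccl6 was 0.31 without 51I1, and Ccl5 was 0.40 without 66D2, 0.42 without 51I1 and 1.32 without 45D3. Ccl21 was 4.24 without 45D3, the tumour with -3.90, and 0.32 with the skeletal muscle covariate. Only 1 basal Ccl21 signal, against 4 final ones, lay above BioB on its own array. Its biopsy signal in 66D2 was 4.12, below the dim cutoff, so the size of its mean difference rests on dim biopsies.

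The genes whose profiles over the 10 arrays lay nearest to each gene of the axis were found among genes of similar spread (SD within 1.5 times), by the root mean square distance between profiles centred on their own means. Nearest to Ackr3, among 1022 genes, were Synpo2, an actin-binding protein of muscle Z-discs (0.41 log2 units), Pcsk6, a proprotein convertase (0.46), Pla2g2a, a secreted phospholipase (0.46), Heg1, a membrane protein of endothelium (0.46), and Adamtsl1, a secreted matrix glycoprotein (0.46), where the median distance was 1.16. Nearest to Cxcl12 by 1369633_at, among 1626 genes, were Adamtsl1 (0.30), the basement membrane protein Nid1 (0.32), the peptidase Cpq (0.33), Txnip, an inhibitor of thioredoxin (0.33), and the scavenger receptor Colec12 (0.35), against a median of 0.89. Adamtsl1 thus stands in both sets, and the distance between Ackr3 and Cxcl12 themselves was 0.57. These profiles hold the final minus basal difference by which the genes were chosen, so no link between Ackr3 and Cxcl12 is read from them. The nearest genes lie below the median distance by construction. Nearest to Cxcr4 by 1389244_x_at, among 4186 genes, were Dffb, the caspase-activated nuclease (0.16), Ebi3, a cytokine subunit (0.19), Trim24 (0.19), Tfap2c, a transcription factor of mammary epithelium (0.19), and Dus1l (0.20), against a median of 0.46. The distance of Cxcr4 from Ackr3 was 1.10 and from Cxcl12 0.88. Ackr3 and Cxcl12 each had an SD over 1.5 times that of Cxcr4, so neither was among the genes behind that median. Their distances from Cxcr4 also hold this difference in spread, and no unlikeness of profile is read from them.

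**Figure D4:**
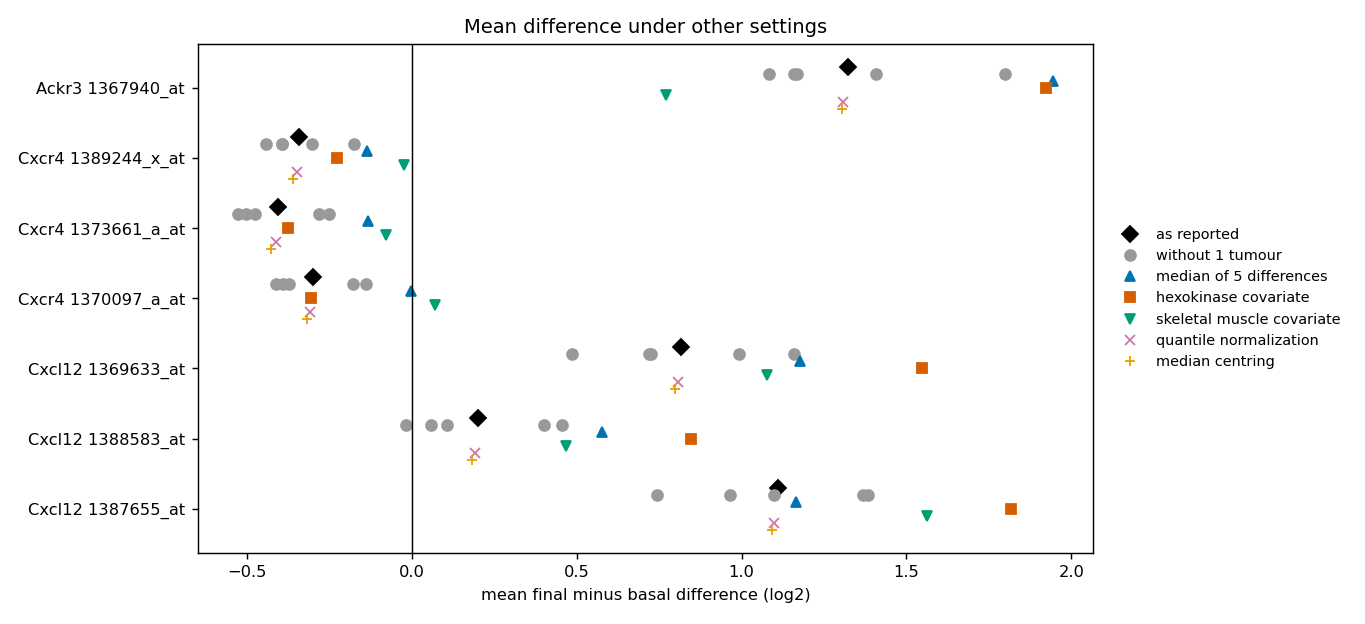
Mean final minus basal difference (log2, horizontal axis) of each probe set as reported (black diamonds) and under other settings: without each tumour in turn, with the median in place of the mean, with a covariate or with another normalization. The Ackr3 values run from 0.77 to 1.94, the Cxcr4 values from -0.53 to 0.070, and only the Cxcl12 probe set 1388583_at and the Cxcr4 probe set 1370097_a_at cross 0.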

How the data were processed

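RNA of 5 final and 5 basal tumour samples was hybridised to Affymetrix rat arrays, 1 array a sample. The authors' normalization was RMA, as both the design text and the processing notes of the submitters state; no version is named. Values were taken as log2 signal, a scale inferred for the deposited table from its range and near-equal array medians. The table still held 57 controls among 31099 probe sets. The platform annotation of 2016 gave 1 symbol to 20826, several to 436 and none to 9780. The dimmest 40% by mean were left out, leaving 18625 probe sets for 10839 genes.

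The fit used limma 3.58.1 (R 4.3.3) with the tumour identifier, which the labels give to both samples of a tumour, as a block (4 residual degrees of freedom), and Benjamini-Hochberg adjustment over all tested probe sets. Deviations of same-tumour arrays correlated at 0.30 on average, and 4 of 5 final arrays matched their own biopsy best. The labels do not say whether tumours share a rat, so p-values measure how the final minus basal difference varies among these tumours. The fit was tested on simulated data. For the 7 Ackr3, Cxcr4 and Cxcl12 probe sets only means, SDs and SEs of the 5 within-tumour differences were computed. A list gene is read by its brightest tested probe set. The genes and lists were chosen with earlier results of these data known. Axis and family lists name up to 4 genes with the smallest p, marker lists up to 2 of the brightest for the tissue check, and likeness the 5 nearest genes. Alternatives were no replicate block, a random block, leaving out each tumour, median centring, quantile normalization, other dim filters, a hexokinase or skeletal muscle covariate, the median difference and the methods' t-test. Arrays carry no depth, and the precision is limited by how many there are.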

Additional observations from a re-analysis of the deposited data

Results flagged for a closer look

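No signal of Ackr3, Cxcr4 or Cxcl12 stood apart from the other 4 of its group by Dixon's criterion for 5 samples (0.71). Among 182 groups of 5 values checked, which also hold the named genes, the list medians and the hexokinase difference, 7 were marked, where chance marks about 1 in 20. The final Grk2 signal of 66D2 was 8.40, with the next at 7.93. In biopsies, 66D2 had the lowest Tgfb1 (7.74, next 8.16), C1qa (10.05, next 10.88), Cd3g (5.29, next 8.12) and Cpa3 (6.83, next 10.31). The median level of the other chemokine receptors was also lowest in the biopsy of 66D2 (4.87, next 6.09). Krt5, a basal keratin, was lowest in the biopsy of 49I1 (11.11, next 12.15).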

How the results depend on the processing

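The mean differences of the 7 probe sets kept their sign under all settings run, with 2 exceptions: Cxcr4 by 1370097_a_at was 0.070 with the skeletal muscle covariate, and Cxcl12 by 1388583_at was -0.018 without 51I1. The cause was not tested. With no replicate block, as the pairs are complete, the mean differences are the same (1.32 for Ackr3). Leaving out each tumour gave 1.08 to 1.80 for Ackr3, -0.44 to -0.18, -0.53 to -0.25 and -0.41 to -0.14 for Cxcr4 by 1389244_x_at, 1373661_a_at and 1370097_a_at, and 0.49 to 1.16, -0.018 to 0.46 and 0.74 to 1.38 for Cxcl12 by 1369633_at, 1388583_at and 1387655_at. Across the tested probe sets 0 passed in 14 of the 15 fits, and with the hexokinase covariate 2 did, both higher: Ccn3 (2.44, adjusted p = 0.0237, limma), a matricellular protein named after its values were seen, and a probe set without a symbol (2.32, adjusted p = 0.0432, limma). The replicate block did not change this count of 0. Without the block 1001 probe sets had an unadjusted p under 0.05, and by the methods' t-test 1394 did, also with 0 after adjustment. That count was 1494 as reported, 3383 without 45D3, 833 without 66D2, 795 without 67D3, 998 without 51I1, 2564 with the hexokinase covariate, 575 with the muscle covariate and 2276 with no dim filter. Among the other named genes the sign turned for Rgs1 with the hexokinase (0.11) and muscle (0.087) covariates, Pitpnm3 with the muscle covariate (-0.049) and Cxcl2 with the hexokinase covariate (0.078). Leaving out each tumour gave -0.0065 (without 51I1) to 0.23 for Rgs5 and -0.058 (without 49I1) to 0.34 for Pitpnm3. Of 33 named axis and family genes, 24 moved by over 1.5 times or turned sign when some tumour was left out, 22 with the hexokinase covariate, 14 with the muscle covariate and 0 with median centring or quantile normalization. Limits: 5 tumours, dim signals of Ackr3, chemokine receptors, Dpp4, Calcrl, Cxcl11, Cxcl2, Cxcl3, Ebf1 and Nrf1, dim biopsy signals of Ccl21 and in part of Cxcl12, no tumours without hydroxytyrosol at the later age, and bulk RNA.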
